A study of Mus musculus with 6 samples.

Results

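Nnat, Plagl1, Snrpn, Ndn, Peg3, Zim1, Impact, Grb10, Igf2r and Gnas are mouse genes whose expression is imprinted and which lie scattered over several chromosomes. They were taken as a list of names, and every probe set that the array annotation gave to a single one of them was read. That gave 32 probe sets for the 10 genes, of 34945 single-symbol probe sets for 18193 genes and of 45037 probe sets tested. The cells were mouse embryonic stem (ES) cells of the line EBRTcH3, in which the human WBSCR1 coding sequence, without untranslated regions and with a 3xFLAG tag, sits at the ROSA26 locus behind a promoter that tetracycline represses. Induced cells had been without tetracycline for 24 h, and control cells were kept in it. All groups were grown with LIF, the cytokine that keeps ES cells undifferentiated. Each of the stable clones A3, A1 and A4 gave 1 induced and 1 control array, so that 3 induced arrays faced 3 control arrays and each clone was read on 2 arrays. Both the transgene and the loss of tetracycline separate the conditions and cannot be told apart, whether the transgene was induced was not read from these arrays, and each clone is a single clone.

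An imprinted gene is transcribed mainly from the copy inherited from 1 parent. The parental copies carry different DNA methylation at control regions, set in the egg or sperm and kept after fertilization by maintenance methylation and by the zinc-finger protein ZFP57, which binds the methylated hexamer TGCCGC. Cultured ES cells are known to gain or lose such marks, and lines and clones can then differ in the level of an imprinted gene. Nnat, Plagl1, Snrpn, Ndn, Peg3 and Impact are expressed from the paternal copy, Zim1 and Igf2r from the maternal copy, Grb10 from the maternal copy in most tissues, and Gnas makes several transcripts of different parental origin. Neither methylation nor the parental copy in use was measured here.

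RefSeq promoter windows of build GRCm38.p6, each with 250 bases before and 50 bases from a transcript start, were matched by symbol for 9 of the 10 genes, 16 windows in all. The median window of all 32817 held 7 CpG, and 12 of the 16 windows of these genes held more, over a range of 2 to 45. TGCCGC on either strand stood in 5 of the 16, those of Nnat, Plagl1, Zim1, 1 start of Snrpn and 1 start of Grb10, against 11.6% of all windows. The match began 27 bases after the start in Nnat, 90 bases before it in Plagl1 and 2 bases before it in Snrpn. A match of letters is no measured binding site. TGCCGC itself holds a CpG, and the shares were not compared between windows of like CpG count. Impact was the gene with no window. For the genes with a window that differed most between clones, the 150 bases before a start are printed. They are in lower case with each CpG, the pair of bases that carries DNA methylation, in capitals. They lie at chr2:157559928-157560077 (plus strand) for Nnat, chr10:13090682-13090831 (plus strand) for Plagl1 and chr7:60005200-60005349 (minus strand) for the start that Snurf and Snrpn share.
Nnat: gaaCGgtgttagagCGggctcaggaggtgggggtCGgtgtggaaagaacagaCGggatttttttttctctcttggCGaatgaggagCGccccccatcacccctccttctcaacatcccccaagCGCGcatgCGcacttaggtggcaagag
Plagl1: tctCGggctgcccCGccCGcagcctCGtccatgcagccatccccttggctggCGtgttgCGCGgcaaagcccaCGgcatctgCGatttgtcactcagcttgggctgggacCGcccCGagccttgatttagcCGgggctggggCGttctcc
Snurf/Snrpn: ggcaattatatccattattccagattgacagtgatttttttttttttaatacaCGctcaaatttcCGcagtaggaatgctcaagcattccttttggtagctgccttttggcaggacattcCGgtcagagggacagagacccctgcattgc
The stretch of Nnat held 9 CpG, that of Plagl1 13 and that of Snurf/Snrpn 3.

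Levels were deposited as log2 signals, and array medians were 5.11 to 5.19 log2. A probe set was called dim when its mean over the 6 arrays was under 5 log2, which marked 12 of the 32. That limit did not separate unused genes, since 7 of 13 measured genes of other tissues also reached it. All 10 ES cell markers read 10.29 to 14.05 log2, and 1 of them, Klf4, was called lower in A3 (-0.51 log2). The A3 arrays stood apart from the rest: both lay at least 1 log2 above every other array in 105 probe sets and below in 100. Induced A1 and control A4 likewise shared 36 probe sets at least 1 log2 above the other arrays, none of them of the 10 genes. The endoderm markers averaged 4.98 and 4.92 log2 in the A3 arrays, against 5.47, 5.47, 5.32 and 5.20 log2 in those of A1 and A4, and 3 of 6 were called lower in A3 (Sox7 by -0.83, Gata4 by -0.76 and Gata6 by -0.73 log2). Feeder fibroblast markers averaged 5.01 and 4.83 log2 in A3, against 4.81 to 4.93 log2 in A1 and A4, with 0 of 6 called. Of the 5 neural markers measured, 3 read higher and 2 lower in A3, with a median of 0.28 log2, and 1 was called (Map2, dim, -0.54 log2). Of the mesoderm markers 0 of 4 were called. The control probe set for the 3' end of 18S ribosomal RNA read 7.68 and 6.98 log2 in the A3 arrays, 7.34 log2 in induced A1 and 6.25 to 6.36 log2 in the other arrays. The part of these differences in the results for A3 was not tested.

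Nnat encodes neuronatin, a small membrane protein of brain and endocrine cells, and lies at chr2:157560078-157562525 inside an intron of Blcap. It had the largest difference between A3 and the mean of the other clones among the 32 probe sets. Its probe set (1423506_a_at) read 7.64 log2 in the induced and 7.72 log2 in the control array of A3, 3.85 and 3.98 log2 in those of A1, and 4.13 and 4.49 log2 in those of A4. Both A3 arrays lay 3.15 log2 or more above the other 4, and A1 and A4 stayed under 5 log2. The difference of A3 from the mean of A1 and A4 was 3.57 ± 0.107 log2 (SE), with an adjusted p of 9.822e-06 in limma. The A1 and A4 levels were not shown to be above background, so the difference in RNA may be larger than this, which was not tested. The genes of other tissues (2.61 to 9.14 log2) span the A3 levels as well and set no background. The difference of A3 was 3.65 log2 among induced arrays and 3.48 log2 among control arrays. A1 read 0.40 log2 below A4 (difference -0.40 ± 0.123, adjusted p = 1).

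Plagl1 encodes a zinc-finger transcription factor that restrains cell growth and lies at chr10:13090832-13131694. Its 3 probe sets did not read alike. One of them (1426208_x_at) read 7.05 log2 in the induced and 7.02 log2 in the control array of A3, 3.31 and 3.57 log2 in those of A1, and 3.71 and 3.84 log2 in those of A4. The A3 arrays were again far above the others, and the difference was 3.43 ± 0.106 log2 (adjusted p = 9.822e-06). This probe set counts as dim by its mean, 4.75 log2, because of the 4 arrays of A1 and A4. The brightest of the 3 by its mean (1438588_at) read 5.46 and 5.39 log2 in A3, 4.92 and 5.44 log2 in A1, and 5.33 and 5.36 log2 in A4. There the clones overlapped, with a difference of 0.16 ± 0.138 log2 (adjusted p = 0.533). The dim one (1450533_a_at) read 3.01 and 3.25 log2 in A3, 3.08 and 2.97 log2 in A1, and 2.77 and 3.09 log2 in A4, a difference of 0.16 ± 0.119 log2. So 1 of 3 probe sets separated the clones, and which transcripts each reads was not analysed here. A name ending in x_at marks a probe set with probes that also resemble other transcripts. How much of the difference in 1426208_x_at is Plagl1 RNA was not tested.

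**Figure D1:**
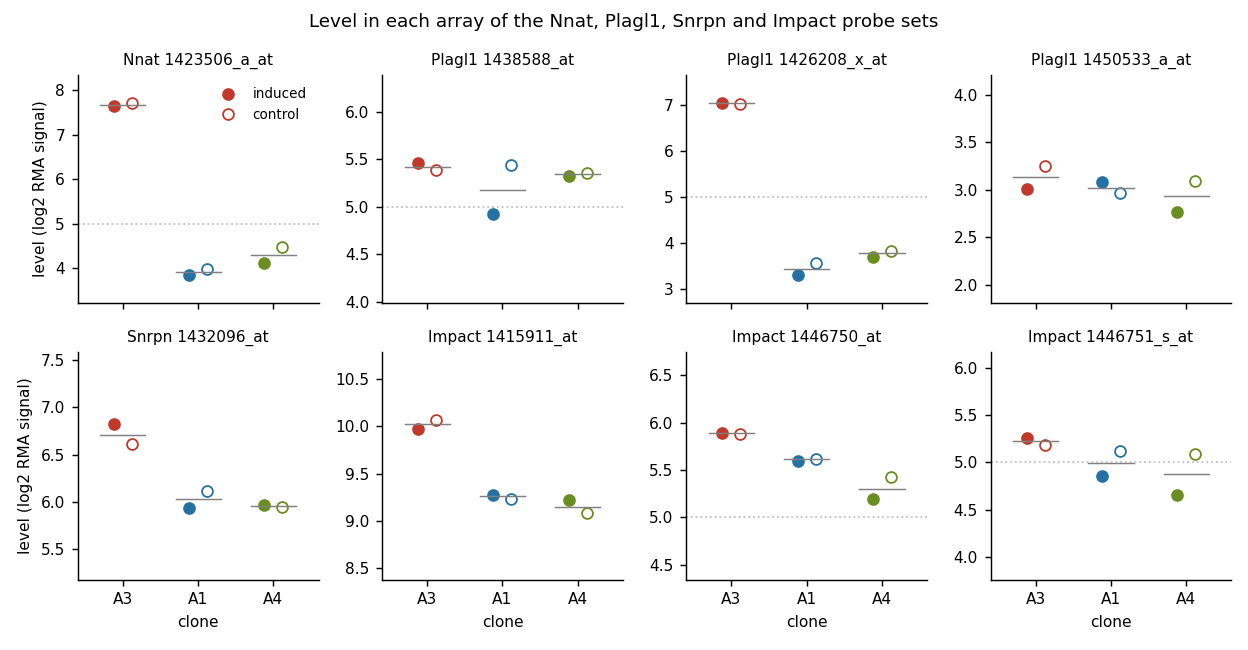
Level (log2 RMA signal) of each Nnat, Plagl1, Snrpn and Impact probe set by clone, filled for the induced and open for the control array, with a grey bar at the mean of a clone's 2 arrays and a dotted line at 5 log2 where it falls in the panel. Each panel has its own axis. A3 sits at 7.64 and 7.72 log2 for Nnat and at 7.05 and 7.02 log2 for 1 of the 3 Plagl1 probe sets, while the other Plagl1 panels show overlapping clones.

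Snrpn encodes SmN, a spliceosome protein of brain and stem cells, and spans chr7:59982495-60450177. Its single-symbol probe set (1432096_at) read 6.82 log2 in the induced and 6.61 log2 in the control array of A3, 5.94 and 6.12 log2 in those of A1, and 5.97 and 5.95 log2 in those of A4. Both A3 arrays were above the rest by at least 0.48 log2, and the difference was 0.72 ± 0.113 log2 (adjusted p = 0.00828). Without induced A3 it was 0.57 log2 with an adjusted p of 0.0976, and without induced A1 and control A4 together 0.67 log2 with an adjusted p of 0.0717. Another 6 probe sets were annotated to Snurf and Snrpn together, whose open reading frames share a transcript, and were not counted. The 4 bright ones read 1.10 to 1.49 log2 higher in A3, with adjusted p-values of 0.000418 to 0.00179. The brightest (1415895_at) read 12.54 and 12.31 log2 in A3, 11.14 and 11.35 log2 in A1, and 11.07 and 11.26 log2 in A4. The 2 dim ones differed by 0.14 and 0.03 log2.

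Impact encodes a regulator of translation that restrains the kinase GCN2, and lies on chromosome 18. All 3 of its probe sets had both A3 arrays above the other 4. The brightest (1415911_at) read 9.97 log2 in the induced and 10.07 log2 in the control array of A3, 9.28 and 9.23 log2 in those of A1, and 9.22 and 9.09 log2 in those of A4. Its difference was 0.82 ± 0.102 log2 (adjusted p = 0.00336). The second (1446750_at) read 5.89 and 5.88 log2 in A3, 5.59 and 5.62 log2 in A1, and 5.19 and 5.42 log2 in A4. It passed at 0.43 ± 0.104 log2 (adjusted p = 0.0397), but leaving out any single array ended that call, at 0.36 log2 (adjusted p = 0.292) without induced A3 and 0.50 log2 (adjusted p = 0.0969) without control A3. The third (1446751_s_at) gave 0.28 ± 0.125 log2 (adjusted p = 0.214).

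Ndn encodes necdin, a MAGE-family protein of postmitotic neurons, and had the most probe sets, 8. Their differences ran from -0.08 to 0.24 log2, with 6 higher and 2 lower in A3 and 0 called. The brightest (1435382_at) read 7.21 log2 in the induced and 7.32 log2 in the control array of A3, 7.29 and 6.90 log2 in those of A1, and 7.00 and 6.91 log2 in those of A4. The clones overlapped. Peg3, a zinc-finger protein of placenta and brain, had 5 probe sets. The 3 bright ones read 0.27 to 0.46 log2 higher in A3 and the 2 dim ones differed by under 0.01 log2. The brightest (1433924_at) read 8.56 and 8.83 log2 in A3, 8.45 and 8.20 log2 in A1, and 7.98 and 8.31 log2 in A4. It had both A3 arrays on top, by 0.10 log2, and gave 0.46 ± 0.139 log2 (adjusted p = 0.0856). Without induced A1 the difference was 0.60 log2, and without control A1 it was 0.32 log2.

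Among the other genes no probe set passed the test between clones. Zim1, a zinc-finger gene beside Peg3, has 1 dim probe set (1421405_at), at 3.63 and 3.70 log2 in A3, 3.43 and 3.68 log2 in A1, and 3.71 and 3.98 log2 in A4. Igf2r encodes the receptor that clears insulin-like growth factor II, and both of its probe sets gave -0.08 log2 for A3, with overlapping clones. The brighter of them (1424111_at) read 6.95 and 7.13 log2 in A3, 6.86 and 7.03 log2 in A1, and 7.35 and 7.25 log2 in A4. Here A1 lay below A4 on both arrays, by -0.35 ± 0.125 log2, and by -0.33 ± 0.147 log2 in the second probe set (1424112_at), with an adjusted p of 1 for each. A probe set annotated to Airn, the antisense RNA of the locus, together with Igf2r was dim and gave 0.28 ± 0.119 log2 (adjusted p = 0.203).

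Grb10 encodes an adaptor that dampens signalling from the insulin and growth-factor receptors. Its 3 probe sets disagreed in sign. The brightest (1425458_a_at) read 10.51 log2 in the induced and 10.46 log2 in the control array of A3, 10.52 and 10.64 log2 in those of A1, and 10.56 and 10.67 log2 in those of A4, a difference of -0.11 ± 0.10 log2. The other two gave 0.31 ± 0.11 (1425457_a_at, adjusted p = 0.129) and 0.22 ± 0.119 log2 (1430164_a_at, adjusted p = 0.303), with both A3 arrays above the rest in each. Gnas encodes the alpha subunit of the stimulatory G protein, and 4 of its 5 probe sets were dim. The bright one (1450186_s_at) read 10.72 and 10.72 log2 in A3, 10.94 and 11.28 log2 in A1, and 11.25 and 11.02 log2 in A4. Both A3 arrays were at least 0.21 log2 below the others, and the difference was -0.40 ± 0.131 log2 (adjusted p = 0.108). The dim ones gave -0.21 to 0.22 log2.

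Over all 32 probe sets, 5 were called higher in A3 and 0 lower, while 3.89% of all tested probe sets were called higher and 5.68% lower. The 5 were those of Nnat, Snrpn, 1 of 3 of Plagl1 and 2 of 3 of Impact. An F test over the clone terms called 4 of the 32, against 5.54% of all, and left out the weaker Impact probe set. Leaving out induced A3 left 3 called higher and 2 by the F test. Without control A3 the F test called 2. Without induced A1 and control A4 it called 2, and 3 were called higher. Between A1 and A4, 0 of the 32 passed, against 0.0178% of all, and their differences ran from -0.40 to 0.32 log2. Both A3 arrays lay above the other 4 in 13 of the 32 (19.8% of all) and below them in 2 (16.6% of all). With 1 probe set a gene, the one with the highest mean, 3 of the 10 were called higher, and the median of the 10 was 0.202 log2. Of all 18193 genes, 933 were called higher and 1149 lower, with a median of 0.038 log2. For Plagl1 this took 1438588_at (0.16 log2) and left out 1426208_x_at (3.43 log2). The genes with a called probe set are all expressed from the paternal copy, as are most of the 10, and Ndn and Peg3 from the same copy had none. Whether the calls go with the parental copy was not tested. Probe sets of 1 gene share its RNA and are no replicates, and the 2 arrays of a clone are not said to come from separate cultures, so the p-values measure the spread between such arrays, which may be technical.

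**Figure D2:**
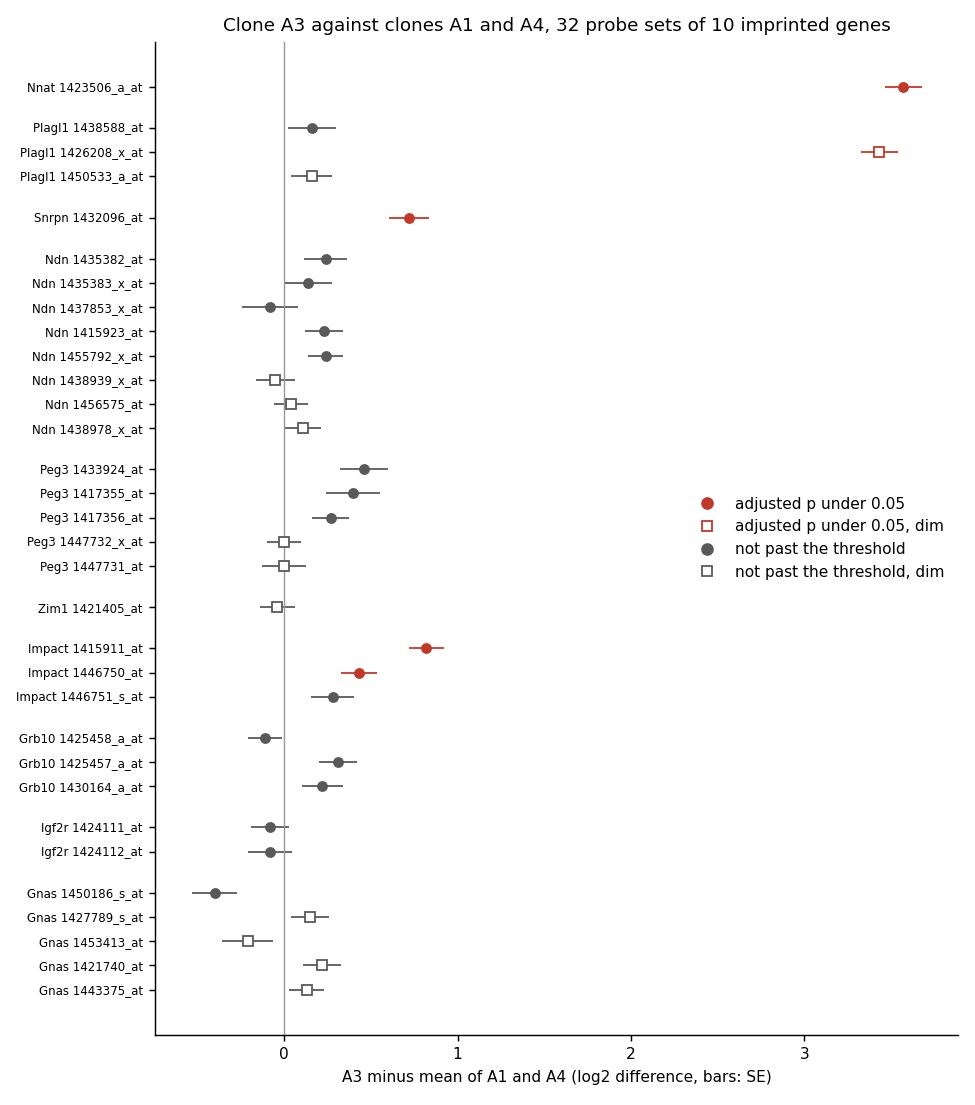
Difference of A3 from the mean of A1 and A4 (log2, x axis) for the 32 probe sets, sorted within a gene by mean level, with bars of 1 SE from limma, open squares for dim probe sets and red for an adjusted p under 0.05. Nnat (3.57) and 1 Plagl1 probe set (3.43) lie far to the right, Snrpn (0.72) and Impact (0.82 and 0.43) follow, and the other probe sets lie between -0.40 and 0.46.

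On induction, 0 of the 32 probe sets passed, as did 0% of all 45037 (676 had an unadjusted p under 0.05 in limma, 0 of them of the 10 genes). With the clone as a block, 0 passed and 1 of the 32, in Ndn (1455792_x_at), had an unadjusted p under 0.05, against 1539 of all. That probe set averaged 6.35 ± 0.193 log2 in induced and 6.11 ± 0.24 log2 in control arrays (SD, n = 3 each). Nnat averaged 5.21 ± 2.11 log2 in induced and 5.40 ± 2.03 log2 in control arrays (SD, n = 3 each), and the spread is that between the clones. Its difference was -0.19 ± 1.23 log2 (SE; adjusted p = 0.999942 in limma), and ± 0.101 log2 with the block. Plagl1 (1426208_x_at) averaged 4.69 ± 2.06 log2 in induced and 4.81 ± 1.92 log2 in control arrays (SD, n = 3 each).

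Within the clones, induced minus control was -0.07 log2 in A3, -0.13 log2 in A1 and -0.37 log2 in A4 for Nnat. It was 0.03, -0.27 and -0.12 log2 for Plagl1 (1426208_x_at). Snrpn gave 0.21, -0.18 and 0.02 log2. Over the 32 probe sets such changes ran from -0.52 to 0.47 log2, and 4 of the 32 moved the same way in all 3 clones: those of Nnat and Zim1 down, and 2 of Ndn up. Each is a difference between single arrays and has no test. The gap between A3 and the other clones in Nnat and Plagl1 1426208_x_at was several times as wide as any of these changes. The other Plagl1 probe sets, at 0.16 log2 each, had no such gap.

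**Figure D3:**
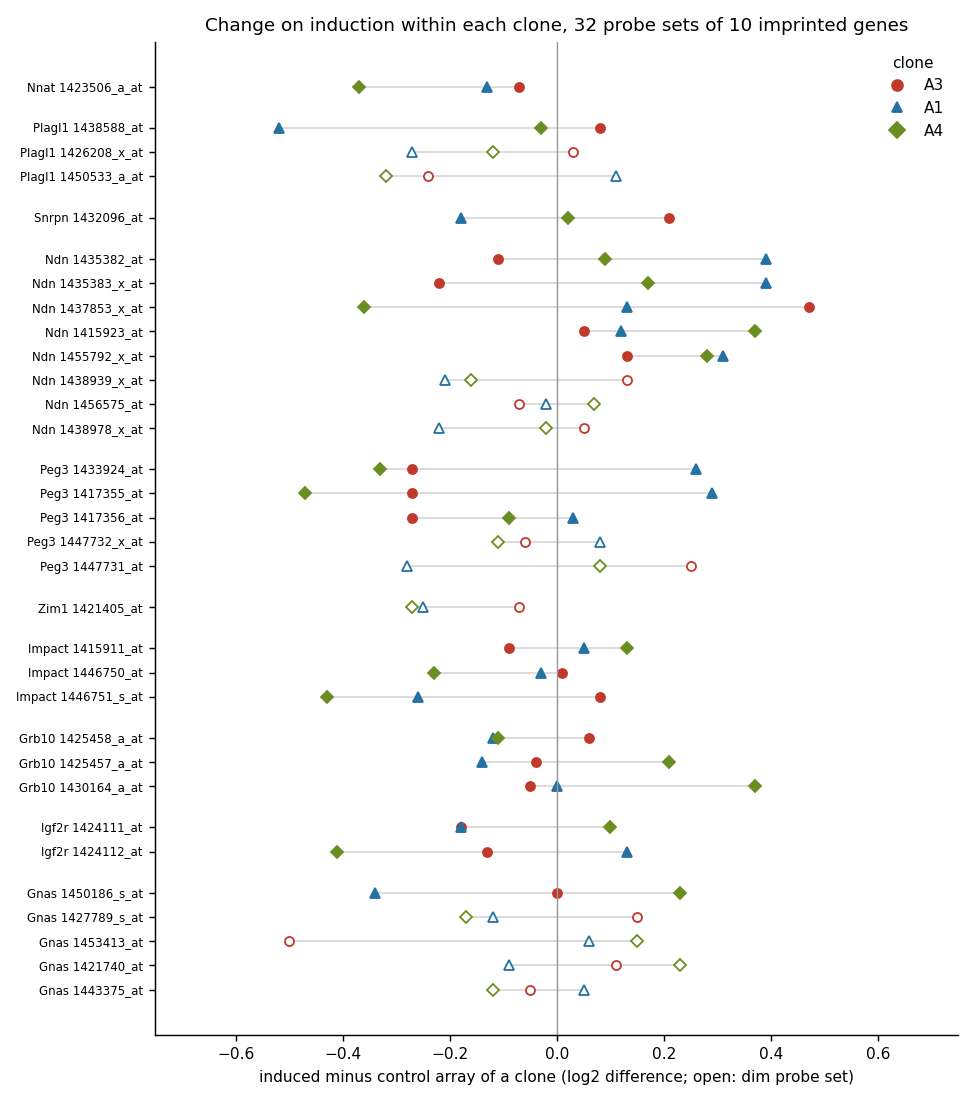
Induced minus control array (log2 difference, x axis) of each clone for the 32 probe sets, with circles for A3, triangles for A1 and diamonds for A4, open where the probe set is dim. The points run from -0.52 to 0.47 on both sides of 0, and only those of Nnat, Zim1 and 2 Ndn probe sets fall on 1 side for all 3 clones.

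The neighbours of these genes in their domains were read from a list of 30, of which 24 were measured, 1 probe set each. There 3 were called higher (12.5%) and 2 lower (8.33%) in A3, with a median of 0.083 log2. Of all 18193 genes 5.13% were called higher and 6.32% lower. Ddc, the enzyme that makes dopamine and serotonin and the neighbour of Grb10, read 9.74 and 9.78 log2 in A3, 8.55 and 8.41 log2 in A1, and 8.13 and 8.22 log2 in A4, 1.44 ± 0.102 log2 higher in A3 (adjusted p = 0.00042). Cobl, an actin nucleator on the other side of Grb10, fell by 0.95 log2 (adjusted p = 0.00168), and Osbpl1a, a sterol-binding protein near Impact, was 0.71 log2 higher (adjusted p = 0.00626). Blcap, within which Nnat lies, read 7.98 and 7.98 log2 in A3, 8.58 and 8.44 log2 in A1, and 8.31 and 8.40 log2 in A4. It was lower in A3 (-0.45 ± 0.102 log2, adjusted p = 0.0322), so that host and inner gene differed in opposite directions. Beside Snrpn, Ube3a, a ubiquitin ligase, gave -0.33 ± 0.129 log2 (adjusted p = 0.165).

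Another reading took, on each side of each gene, the 5 nearest genes outside these 10 with a mean of at least 5 log2. It followed the RefSeq order of GRCm38.p6 and was added after the values were seen. Dimmer genes were left out, among them Magel2 (0.42 log2, adjusted p = 0.03765) and Phactr2 (-0.23 log2, adjusted p = 0.246). The median difference of the 10 flanking genes was -0.04 log2 for Nnat, with 0 called higher and 3 lower, and -0.05 log2 for Plagl1, with 1 called higher. It was 0.04 log2 for Snrpn, with 1 called in each direction. The higher one was Snhg14, the long non-coding RNA that continues from Snrpn, at 0.94 log2 (adjusted p = 0.0124). For all 10 genes these medians lay between -0.10 and 0.15 log2, but single flanking genes differed by more. Snrpn and Ndn shared all their flanking genes, as did Peg3 and Zim1. Around Grb10, 3 were called higher and 1 lower, with 1700042O10Rik at 2.13 log2 (adjusted p = 0.000352). Around Impact, 2 were called higher, with the cadherin Cdh2, 3634 kb away, at 1.25 log2 (adjusted p = 0.00491). Flanking genes can lie far off: the farthest was 556 kb away for Nnat and 6417 kb away for Ndn.

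Of 41 imprinted genes in other domains, 36 were measured, and 3 were called higher (8.33%, against 5.13% of all genes) and 8 lower (22.2%, against 6.32%) in A3, with a median of 0.076 log2. Cdkn1c, a cell cycle inhibitor expressed from the maternal copy, read 8.26 and 8.36 log2 in A3, 10.11 and 9.89 log2 in A1, and 9.47 and 9.81 log2 in A4, a difference of -1.51 ± 0.129 log2 (adjusted p = 0.000794). Kcnq1ot1, the paternally expressed non-coding RNA of the same domain, was lower too (-1.01 ± 0.173 log2, adjusted p = 0.0114). Sgce, a sarcoglycan expressed from the paternal copy, read 7.46 and 7.24 log2 in A3, 5.29 and 5.46 log2 in A1, and 5.37 and 5.28 log2 in A4, and was 2.00 ± 0.115 log2 higher (adjusted p = 0.000175). Imprinted genes thus lay on both sides.

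All 22 factors that set or keep imprints were measured, and 1 was called higher (4.55%, against 5.13% of all genes) and 4 lower (18.2%, against 6.32%) in A3, with a median of -0.177 log2. Dppa3, which shields maternal methylation in the egg and early embryo, read 8.00 and 7.91 log2 in A3, 6.85 and 6.87 log2 in A1, and 7.00 and 6.90 log2 in A4 (1.05 ± 0.0974 log2, adjusted p = 0.00115). Tet1, which oxidizes methylated cytosine, read 10.20 and 10.62 log2 in A3, 11.24 and 11.34 log2 in A1, and 11.36 and 11.32 log2 in A4 (-0.90 ± 0.121 log2, adjusted p = 0.0044). Tet2, of the same family, was lower by -0.53 log2 (adjusted p = 0.0152). Zfp57 gave -0.73 ± 0.237 log2 with an adjusted p of 0.104. The level of a factor's RNA is not its activity, which was not measured here.

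**Figure D4:**
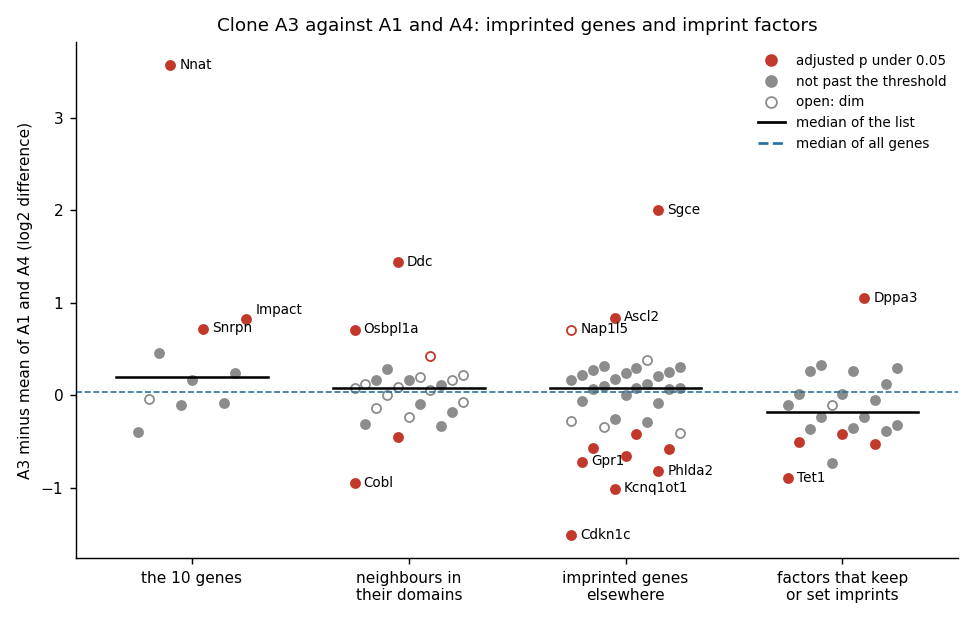
Difference of A3 from the mean of A1 and A4 (log2, y axis) with 1 point a gene for the 10 genes, their neighbours, imprinted genes elsewhere and imprint factors, red where the adjusted p was under 0.05 and open where dim, with names where a called gene differed by over 0.7 in size. Black bars mark list medians of 0.202, 0.083, 0.076 and -0.177, and the dashed line marks 0.038, the median of all genes. Plagl1 is drawn from 1438588_at (0.16), not from 1426208_x_at (3.43).

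The genes whose pattern over the 6 arrays was most like a called member were ranked among 20923 probe sets with a mean of at least 5 log2 by the root mean square difference of levels centred on their own mean. Nearest to Nnat were Aass, the first enzyme of lysine breakdown (0.369 log2), Cd99, a cell surface protein (0.41 log2), and Otx2, a homeobox transcription factor (0.422 log2). The same names stood nearest to the Plagl1 probe set 1426208_x_at, which was added after the values were seen: Cd99 at 0.323, Aass at 0.394 and Otx2 at 0.401 log2. Nnat and that Plagl1 probe set were closer to each other, at 0.112 log2, than either was to any of these. With a mean of 4.75 log2, that Plagl1 probe set would not itself have been ranked. Other probe sets under 5 log2 were not searched, so closer ones may exist. Aass read 9.94 and 10.34 log2 in A3, 6.63 and 6.07 log2 in A1, and 6.33 and 6.13 log2 in A4. Otx2 read 8.46 and 8.85 log2 in A3, 5.62 and 5.16 log2 in A1, and 6.17 and 6.18 log2 in A4. Nearest to Snrpn were Txndc12 and Slc22a7, both at 0.0509 log2, and Mmd at 0.0513 log2. Nearest to Impact were Mta3 (0.0294 log2), Klhl5 (0.0298 log2) and Tex2 (0.0335 log2). The 6 arrays come from 3 clones, so the points behind each distance share clones.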

How the data were processed

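The authors hybridized RNA of 3 clones to Affymetrix mouse arrays and deposited log2 signals made by the robust multiarray average (RMA) of the affy package. Its version was not given in the sources used here, and the precision is limited by the number of arrays. The deposited values were used without another normalization. Tests skipped the 64 Affymetrix controls. Genes were named from the platform annotation, and the gene IDs of 34741 single-symbol probe sets were found in RefSeq (GRCm38.p6).

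Induced and control arrays were compared with limma 3.58.1 in R 4.3.3, with no block, as the study's methods state none, and clones by an F test and the contrasts A3 minus the mean of A1 and A4 and A1 minus A4 in a fit of condition and clone. All tests were two-sided with Benjamini-Hochberg adjustment over 45037 probe sets at 0.05. Replicate numbers mark clones and so pair the arrays. Deviations of the paired arrays from the group means correlated at 0.67 for A3, 0.314 for A1 and 0.29 for A4. Induced A1 with control A4 (0.369) and induced A4 with control A1 (0.348) correlated more. These correlations thus do not tell A1 and A4 apart, and the pairing rests on the labels. Both A1 arrays lay at least 1 log2 below every other array in 6 probe sets, and both A4 arrays above in 2. Induced A1 and control A4 lay above in 36, and induced A4 and control A1 in 0. The replicate block called 0 probe sets.

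Named were all 10 genes with every single-symbol probe set, the highest mean standing for a gene, the 3 called members largest in size of each list, and the 3 nearest genes by pattern for each gene whose leading probe set passed the F test. The 10 genes and the lists were chosen with earlier results of these data known, so they are no independent evidence. Other genes named, such as Blcap, Ube3a, Zfp57 and Snhg14, were chosen with their values seen. Plots were drawn with matplotlib 3.10.9. The fits were tested on simulated data.

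Alternatives were other normalizations, limits on dim probe sets, variance models, array weights and thresholds, the block, the methods' test, and leaving out arrays or clones.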

Additional observations from a re-analysis of the deposited data

How the results depend on the processing

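Nnat (3.37 to 3.77 log2) and the Plagl1 probe set 1426208_x_at (3.26 to 3.60 log2) were higher in A3 past the threshold under each alternative run for them. That Plagl1 probe set is removed by either limit on dim probe sets, and Nnat by a mean of at least 6 log2. Impact 1415911_at (0.72 to 0.91 log2) passed save with the added threshold of 1 log2. Peg3 1433924_at missed in the main fit and in 15 of its 19 alternatives. Among the rest it passed with quantile normalization again (0.52 log2), with eBayes trend and robust options and at an adjusted p under 0.1 (0.46 log2 each). No probe set of the 10 genes was called on induction under any of the 21 alternatives, among them the replicate block and the methods' test. With 2 arrays a clone, a difference that missed the threshold does not show that clones read alike.

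Of the probe sets of the 10 genes, 5 were called higher in A3 and 4 by the F test over clones. Both counts were 2 with a mean of at least 6 log2 and 2 with an added threshold of 1 log2, where fewer probe sets could pass. Without induced A1 and control A4 they were 3 and 2. Leaving out single arrays or clones gave 3 to 5 called higher and 2 to 3 by the F test. With eBayes trend and robust options 1 was called lower, the bright one of Gnas (-0.40 log2).

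Over all probe sets the F test called 2496, A3 higher 1752, A3 lower 2557 and A1 against A4 8. At an adjusted p under 0.1 the F test called 4060 and A3 higher 2929. With the added threshold of 1 log2 the F test called 513, A3 higher 238 and A3 lower 272. With a mean of at least 6 log2, A1 against A4 called 5. Without induced A1 and control A4, the F test called 30, A3 higher 399, A3 lower 541 and A1 against A4 0. Leaving out arrays or clones gave 589 to 1959 by the F test, 606 to 1246 higher, 706 to 1852 lower and 1 to 8 between A1 and A4.

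Signs that turned belonged to differences that did not pass. With another probe set in place of the brightest, A3 minus the mean of A1 and A4 turned to -0.08 and -0.05 in Ndn, to under 0.01 in size in Peg3 (0), to 0.31 and 0.22 in Grb10 and to 0.15, 0.22 and 0.13 log2 in Gnas. Left-out arrays or clones gave -0.02 to 0.34 for Plagl1 1438588_at, -0.18 to 0.10 for Zim1 and -0.26 to 0.09 log2 for Igf2r.

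On induction, arrayWeights turned Snrpn (-0.08), Igf2r (0.06) and Gnas (0.01). Without induced A1 and control A4 the difference turned in Nnat (0.04), Plagl1 1426208_x_at (0.09), Ndn (-0.01), Impact (-0.05) and Igf2r (0.07). Left-out arrays or clones gave -1.41 to 0.97 for Nnat and -1.30 to 0.99 for Plagl1 1426208_x_at, since such fits leave a clone in 1 condition. They gave -0.28 to 0.02 for Plagl1 1438588_at, -0.27 to 0.21 for Snrpn, -0.01 to 0.26 for Ndn, -0.30 to 0.08 for Peg3, -0.21 to 0.33 for Impact, -0.25 to 0.10 for Impact 1446750_at, -0.24 to 0.01 for Igf2r and -0.18 to 0.12 log2 for Gnas.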
